A study of Homo sapiens with 30 samples.

Results

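BRD8 and TIP60 belong to one chromatin complex, and in SW480 cells the RNA left after depletion of BRD8 was set directly against the RNA left after depletion of TIP60. The comparison held 12 of the 30 libraries of the series: 6 from cells given an siRNA against BRD8 (siBRD8-6 or siBRD8-36) and 6 from cells given an siRNA against TIP60 (siTIP60-2 or siTIP60-11), 3 replicates for each siRNA. The 3 SW480 libraries with a control siRNA entered no test and are given only as a reference level. SW480 is an established human colorectal cancer line. All groups carried the same lipid transfection at 10 nM of siRNA and were harvested after 48 h, and the labels give no difference between the 4 groups other than the siRNA. A gene was called where each BRD8 siRNA differed from each TIP60 siRNA in one direction, that is, where all 4 pairwise differences had one sign and the largest of their 4 p-values in edgeR's quasi-likelihood test stayed under 0.05 after Benjamini-Hochberg adjustment over all genes tested. Every adjusted p given for a gene is that value. Whether the replicates were separate cultures is not stated, so p-values measure the spread between these libraries, which may be technical.

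TIP60, the product of KAT5, is a lysine acetyltransferase that modifies histones H4 and H2A and works in a large complex with the ATPase EP400, the helicase-like proteins RUVBL1 and RUVBL2 and the scaffold TRRAP. BRD8 is the bromodomain subunit of that complex and binds acetylated histone tails. The complex is known for roles in transcription, in the exchange of the histone variant H2A.Z and in the repair of broken DNA. A direct comparison shows where the RNA left by both depletions differs, and not what they share.

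The 12 libraries held 8.21 to 11.7 M counts each, against 7.07 to 7.69 M counts in the controls. Levels are given as CPM, counts per M counts of the library after TMM scaling, and a difference is the mean of both BRD8 siRNAs minus the mean of both TIP60 siRNAs on the log2 scale, ± SE, so that a positive value means more RNA with BRD8 siRNAs. Mitochondrially encoded RNA took 4.02 to 4.31% of the counts in the siTIP60-11 libraries and 2.29 to 2.90% in the other 9. Ribosomal protein genes took 7.63% in siBRD8-36 replicate 3 and 9.26 and 9.49% in the other siBRD8-36 libraries. Without that library, 1627 genes were called in place of 1572. The epithelial markers fixed for the line were present: KRT8 lay between 1884 and 2672 CPM and EPCAM between 178 and 266 CPM over the 15 libraries, while KRT20 had 3 counts in all.

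Each target was low in its own libraries and not in those of the other target. BRD8 (chromosome 5, 138139766 to 138178986 on the minus strand, GRCh38, a coding gene) stood at 12.3, 13.9 and 14.1 CPM in the siBRD8-6 libraries and at 12.2, 11.5 and 10.96 CPM in the siBRD8-36 libraries. It stood at 61.1, 54.96 and 66.6 CPM with siTIP60-2 and at 50.1, 54.3 and 49.9 CPM with siTIP60-11, around the control level of 51.4 to 59.2 CPM. The mean difference was −2.16 ± 0.0664, adjusted p = 1.12e-12. KAT5 (chromosome 11, 65711996 to 65719604 on the plus strand) stood at 3.8, 3.38 and 2.31 CPM with siTIP60-2 and at 5.1, 5.69 and 5.38 CPM with siTIP60-11. With siBRD8-6 its values were 39.5, 41.8 and 43.2 CPM and with siBRD8-36 29.2, 29.1 and 30.7 CPM, the latter below the control range of 38.1 to 41.7 CPM. The difference was 3.09 ± 0.0882, adjusted p = 1.12e-12, and the exons of KAT5 overlap those of RNASEH2C on the opposite strand over up to 558 bases. The libraries therefore carry the depletions their labels state.

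Of 15220 genes tested, 1572 (10.3%) were called, 779 higher (5.12%) and 793 lower (5.21%) with BRD8 siRNAs. Of these, 150 differed at least 2-fold in all 4 pairings, 69 higher and 81 lower. The median called gene differed by 0.76 on the log2 scale, and by 0.47 in its smallest pairing. In 1559 of the called genes all 6 BRD8 libraries lay beyond all 6 TIP60 libraries, a separation found in 2608 (17.1%) of the genes tested. Among protein-coding genes, just inside the threshold lay SCNM1 (mean difference 0.41, adjusted p = 0.0498), TOR2A (−0.57, 0.0498) and PRSS16 (0.56, 0.0499), and just outside it RCN3 (1.22, 0.0506), LARP1 (0.32, 0.0507) and MVP (0.92, 0.0507), 6 genes named for their place alone. With limma on log2(TPM + 1) the count was 583 genes, and its split moved to 365 higher and 218 lower. Of the 116 called genes named here, 47 were not called with it.

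The siRNAs of one target also differed from each other. The mean of both BRD8 siRNAs differed from the mean of both TIP60 siRNAs in 9013 genes (59.2%), while siBRD8-6 differed from siBRD8-36 in 7927 (52.1%) and siTIP60-2 from siTIP60-11 in 6729 (44.2%). Of the 15220 genes, 8671 did not have all 4 differences on one side, and 4977 had them on one side without passing the test. In the principal components, the first axis (34.3% of the variance) set siBRD8-36 apart at scores of −54.48 to −51.97, the second (22.6%) set siBRD8-6 apart, and the third (16.1%) separated siTIP60-2 from siTIP60-11. On the first axis the siBRD8-6 libraries, at −6.18 to −1.3, also lay on the BRD8 side of all TIP60 libraries, which scored 23.6 to 32.13.

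**Figure D1:**
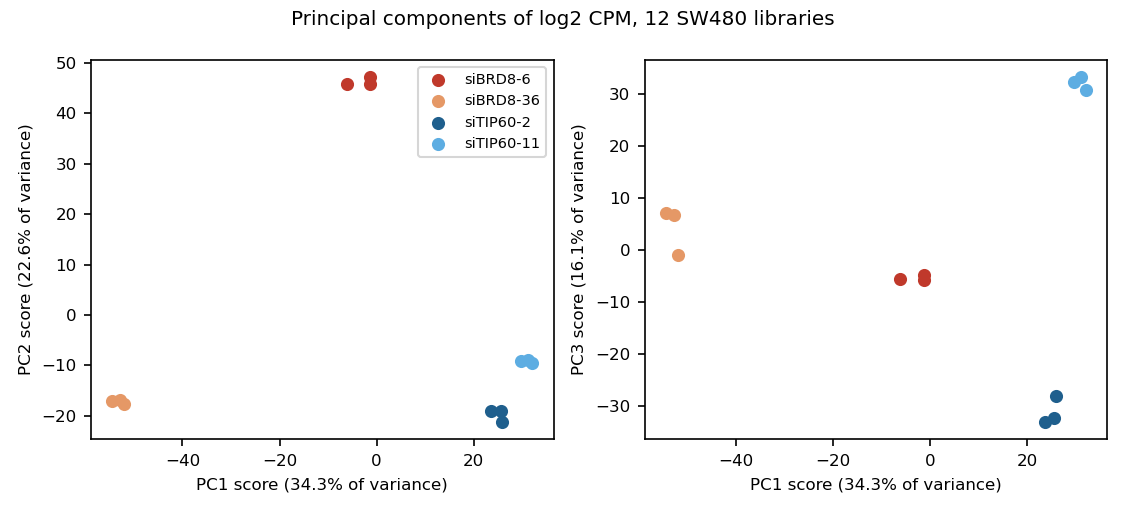
Principal component scores of log2 CPM for the 12 SW480 libraries, PC1 against PC2 (left) and PC1 against PC3 (right); each point is 1 library, coloured by siRNA. The 3 replicates of each siRNA sit together, siBRD8-36 lies far from the rest on PC1 (34.3% of variance), siBRD8-6 on PC2 (22.6%), and the TIP60 siRNAs part on PC3 (16.1%).

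Genes of DNA replication were lower with BRD8 siRNAs. Replication starts from origins that the origin recognition complex (ORC) loads with the MCM helicase, and the loaded helicase is then joined by CDC45 and GINS, by polymerases and by the sliding clamp PCNA. Of 14 tested genes of the origin licensing complex 7 were called lower and 0 higher (median difference −0.68), and of 37 replication fork genes 15 were called lower and 0 higher (median −0.66), where 5.21% of all genes tested were called lower and their median was −0.01. All 6 subunits of the helicase, MCM2 to MCM7, were among the called genes. The lower fork genes included PCNA, GINS2 and GINS4 and members of the polymerase epsilon (POLE, POLE2, POLE3, POLE4) and clamp loader (RFC3, RFC4, RFC5) families. With limma on log2(TPM + 1), 2 and 5 of these genes were called lower. Against siTIP60-2 and siTIP60-11 the licensing medians were −0.54 and −0.25 for siBRD8-6 and −1.14 and −0.72 for siBRD8-36. The fork medians were −0.57 and −0.25 for siBRD8-6 and −1.09 and −0.77 for siBRD8-36, so both lists were lower by more with siBRD8-36. siBRD8-6 and siBRD8-36 themselves differed in 13 of the 14 and 26 of the 37 genes. In bulk RNA, fewer cells in S phase and less RNA of these genes per cell cannot be told apart.

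PCNA, the ring that holds DNA polymerases on the template, stood at 132, 143 and 118 CPM with siBRD8-6 and at 147, 149 and 127 CPM with siBRD8-36. It stood at 321, 318 and 345 CPM with siTIP60-2 and at 310.3, 317 and 309.8 CPM with siTIP60-11. The TIP60 libraries thus lay at or slightly above the control range of 299 to 309 CPM, and no BRD8 library reached that range. The difference was −1.23 ± 0.0511, adjusted p = 8.88e-11, with pairwise values of −1.32 and −1.25 with siBRD8-6 and −1.22 and −1.15 with siBRD8-36 (each against siTIP60-2 and siTIP60-11). MCM5, a helicase subunit, ranged over 23.9 to 38.5 CPM (median 30.7) with BRD8 siRNAs and 49.9 to 73.1 CPM (median 62.1) with TIP60 siRNAs (−1.005 ± 0.0553, adjusted p = 1.87e-05). Its controls lay at 49.4 to 51.4 CPM, with siTIP60-2 above them at 69.1 to 73.1 CPM and siTIP60-11 at 49.9 to 55.1 CPM. GINS2, part of the tetramer that activates the helicase, ranged over 16.6 to 28.6 CPM (median 22.9) and 47.9 to 62.1 CPM (median 54.02) (−1.28 ± 0.0631, adjusted p = 1.2e-07). MCM4 differed by −1.14 ± 0.0477 and MCM7 by −0.83 ± 0.0423. In MCM4 siTIP60-2, at 210 to 231 CPM, again lay above the controls at 143 to 155 CPM, so part of that difference lay in higher levels with siTIP60-2. The BRD8 and TIP60 libraries did not overlap in any of the 5 genes. That held for 1559 of the 1572 called genes and for 17.1% of all genes tested, so it adds little to the calls.

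Mitotic genes held the largest share of lower calls among the replication, repair and mitosis lists. Of 39 tested genes expressed in G2 and M phase, 26 were called lower and 0 higher (median difference −0.92), and 7 were called lower with limma on log2(TPM + 1). Of all genes tested, 5.21% were called lower. The called genes covered the chromosomal passenger complex (AURKB, BIRC5), the spindle checkpoint (BUB1, TTK, MAD2L1), kinesins (KIF11, KIF14, KIF2C, CENPE), the midzone protein PRC1, the exchange factor ECT2 that starts cytokinesis, the kinase PLK1, the factor FOXM1 and the proliferation marker MKI67. The 13 members without a call had mean differences from −1.51 to −0.18. The medians against siTIP60-2 and siTIP60-11 were −0.60 and −0.46 for siBRD8-6 and −1.48 and −1.29 for siBRD8-36, so the list was lower in all 4 pairings and by more with siBRD8-36. siBRD8-6 and siBRD8-36 themselves differed in 38 of the 39 genes.

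PRC1, which bundles the microtubules of the spindle midzone, ranged over 18.8 to 26.6 CPM (median 23.7) in the BRD8 libraries and 50.9 to 67.8 CPM (median 57.1) in the TIP60 libraries, with controls at 55.3 to 57.02 CPM (−1.33 ± 0.06, adjusted p = 3.85e-09). ECT2 ranged over 72.4 to 92.5 CPM (median 78.8) and 156 to 179 CPM (median 178), with controls at 185 to 196 CPM (−1.10 ± 0.0478, adjusted p = 5.17e-10). The TIP60 libraries lay on both sides of the controls in PRC1 and below them in ECT2, and every BRD8 library lay below controls and TIP60 libraries in both genes. AURKB, the Aurora kinase of the passenger complex, ranged over 29.9 to 51.6 CPM (median 44.6) and 83.9 to 94.4 CPM (median 87.3) (−1.08 ± 0.0591, adjusted p = 2.42e-07). CENPE, the kinesin that carries chromosomes to the spindle equator, differed by −1.28 ± 0.103, adjusted p = 0.000478. Reads of PRC1 can be shared with an annotated transcript of the same strand that overlaps it over 1013 bases.

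Promoters of cell cycle genes are known to carry short elements that recruit repressor and activator complexes: the cell cycle homology region (CHR) in mitotic genes, E2F sites in replication genes, and CCAAT boxes, bound by NF-Y, in both. The 250 bases before the annotated start of 3 of the genes above are shown (RefSeq, GRCh38.p14), read 5′ to 3′ on the gene's strand, because 1 replication gene and 2 mitotic genes illustrate these arrangements. PCNA lies on chromosome 20 (5126623 to 5126872, minus strand), PRC1 on chromosome 15 (90994536 to 90994785, minus strand) and ECT2 on chromosome 3 (172750476 to 172750725, plus strand). Capitals mark CCAAT or its complement in all 3, GCGGGAAA (an E2F site read on the other strand) in PCNA, and the CHR letters TTTGAA in PRC1 and ECT2.
PCNA: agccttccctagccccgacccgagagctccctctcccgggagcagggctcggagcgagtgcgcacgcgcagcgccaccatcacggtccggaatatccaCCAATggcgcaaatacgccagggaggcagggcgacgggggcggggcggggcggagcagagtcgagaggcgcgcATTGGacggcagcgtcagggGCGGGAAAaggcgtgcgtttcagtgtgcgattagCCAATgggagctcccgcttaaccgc
PRC1: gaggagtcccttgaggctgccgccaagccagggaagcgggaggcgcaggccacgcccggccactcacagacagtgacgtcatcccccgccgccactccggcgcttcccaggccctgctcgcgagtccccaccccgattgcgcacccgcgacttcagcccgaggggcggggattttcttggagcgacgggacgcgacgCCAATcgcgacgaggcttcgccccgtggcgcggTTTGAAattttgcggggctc
ECT2: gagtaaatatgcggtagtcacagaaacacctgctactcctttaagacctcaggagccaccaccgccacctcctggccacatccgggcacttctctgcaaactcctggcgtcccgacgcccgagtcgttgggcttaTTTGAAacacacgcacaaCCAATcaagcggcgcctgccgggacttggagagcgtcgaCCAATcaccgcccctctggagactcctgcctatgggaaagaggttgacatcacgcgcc

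PCNA held 3 CCAAT matches, starting 152, 79 and 25 bases before the start site, with the E2F match 59 bases before it. PRC1 held 1 CCAAT match at 53 bases and the CHR letters at 20 bases before the start. ECT2 held the CHR letters at 115 bases and CCAAT at 97 and 58 bases before it. The search read both strands of the 250 bases for TTTGAA, for CCAAT, and for any of TTTGGCGC or TTTCCCGC or TTTCGCGC. The CCAAT, CHR and E2F matches shown do not overlap one another. A promoter was matched for 10517 of 12899 tested protein-coding genes. The CHR letters stood in 856 of 10517 (8.14%) of these, in 94 of 591 (15.9%) of those called lower and in 33 of 618 (5.34%) of those called higher, and in 16 of 33 (48.5%) of the matched mitotic genes. CCAAT stood in 3694 of 10517 (35.1%) of all matched genes, 270 of 591 (45.7%) of the lower and 187 of 618 (30.3%) of the higher. The E2F letters stood in 407 of 10517 (3.87%), 41 of 591 (6.94%) and 24 of 618 (3.88%). Over all 27305 genes with a listed promoter the shares were 13.6% for CHR, 33.0% for CCAAT and 2.38% for E2F. A match describes letters and not a bound site.

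Genes that repair DNA by homologous recombination or, at crosslinks, through Fanconi proteins followed the replication genes in direction. Of 27 tested, 14 were called lower and 0 higher (median −0.80), 3 of them with limma on log2(TPM + 1). Of all genes tested, 5.21% were called lower and 5.12% higher. Their medians against siTIP60-2 and siTIP60-11 were −0.82 and −0.36 for siBRD8-6 and −1.29 and −0.93 for siBRD8-36. The BRD8 siRNAs themselves differed in 18 of the 27 genes. FANCD2, the protein monoubiquitinated at a crosslink, ranged over 9.01 to 16.8 CPM (median 12.6) with BRD8 siRNAs and 24.5 to 37.7 CPM (median 30.6) with TIP60 siRNAs (−1.35 ± 0.0746, adjusted p = 7.92e-06). XRCC2, a protein of homologous recombination, ranged over 5.88 to 12.1 CPM (median 8.79) and 18.6 to 29.8 CPM (median 22.6) (−1.45 ± 0.0826, adjusted p = 2.88e-05). The controls of XRCC2 lay at 17.6 to 21.8 CPM, below siTIP60-2 at 23.9 to 29.8 CPM. As in most called genes, the ranges of FANCD2 and XRCC2 did not overlap between targets. FANCA, a subunit of the Fanconi core, differed by −1.14 ± 0.0817, and its exons overlap ZNF276 on the opposite strand. Among 15 genes of deoxynucleotide and folate synthesis, 5 were called lower and 1 higher (ATIC, a purine synthesis enzyme), with a list median of −0.13. Against siTIP60-2 and siTIP60-11 the medians of this list were −0.13 and −0.22 for siBRD8-6 and 0.002 and −0.41 for siBRD8-36. The 1 higher call is near the share of all genes. DTYMK, DUT, RRM1, RRM2 and TK1 were the lower ones. DUT, which clears dUTP, ranged over 62.8 to 82.1 CPM (median 76.2) and 107 to 129.9 CPM (median 121) (−0.67 ± 0.0486, adjusted p = 1.28e-05). RRM2, the small subunit of ribonucleotide reductase, ranged over 207 to 229 CPM with siBRD8-6 and 87.8 to 98.3 CPM with siBRD8-36. With TIP60 siRNAs it ranged over 280.4 to 343 CPM (median 321) (−1.14 ± 0.0445, adjusted p = 7.13e-05). The pairwise differences of RRM2 against siTIP60-2 and siTIP60-11 were −0.39 and −0.63 for siBRD8-6 and −1.66 and −1.89 for siBRD8-36, so most of the difference lay with siBRD8-36.

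The regulators above these genes were called less uniformly. Of 29 G1/S regulators, 2 were called lower and 1 higher (median −0.15), near the background shares. E2F7, a repressor of the E2F family, ranged over 2.42 to 9.23 CPM (median 5.21) with BRD8 siRNAs and 12.02 to 25.4 CPM (median 17.6) with TIP60 siRNAs (−1.90 ± 0.0984, adjusted p = 0.000526). Its controls lay at 9.28 to 12.95 CPM, below siTIP60-2 at 21.2 to 25.4 CPM. E2F1, an activator of the family, differed by −1.08 ± 0.0731, adjusted p = 0.012, and it was no longer called without siBRD8-6 replicate 1 (adjusted p = 0.058) and without siBRD8-6 replicate 3 (0.0659). E2F5, a repressor that pairs with pocket proteins, was higher, at 22.9 to 27.3 CPM (median 24.2) against 7.13 to 16.1 CPM (median 11.98) (1.11 ± 0.0778, adjusted p = 0.0001). Its exons overlap those of RBIS on the opposite strand. None of 13 tested replication-dependent histone genes was called by edgeR or DESeq2 (median −0.20, mean differences from −1.998 to 0.31), and 2 of them had an unadjusted p under 0.05.

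**Figure D2:**
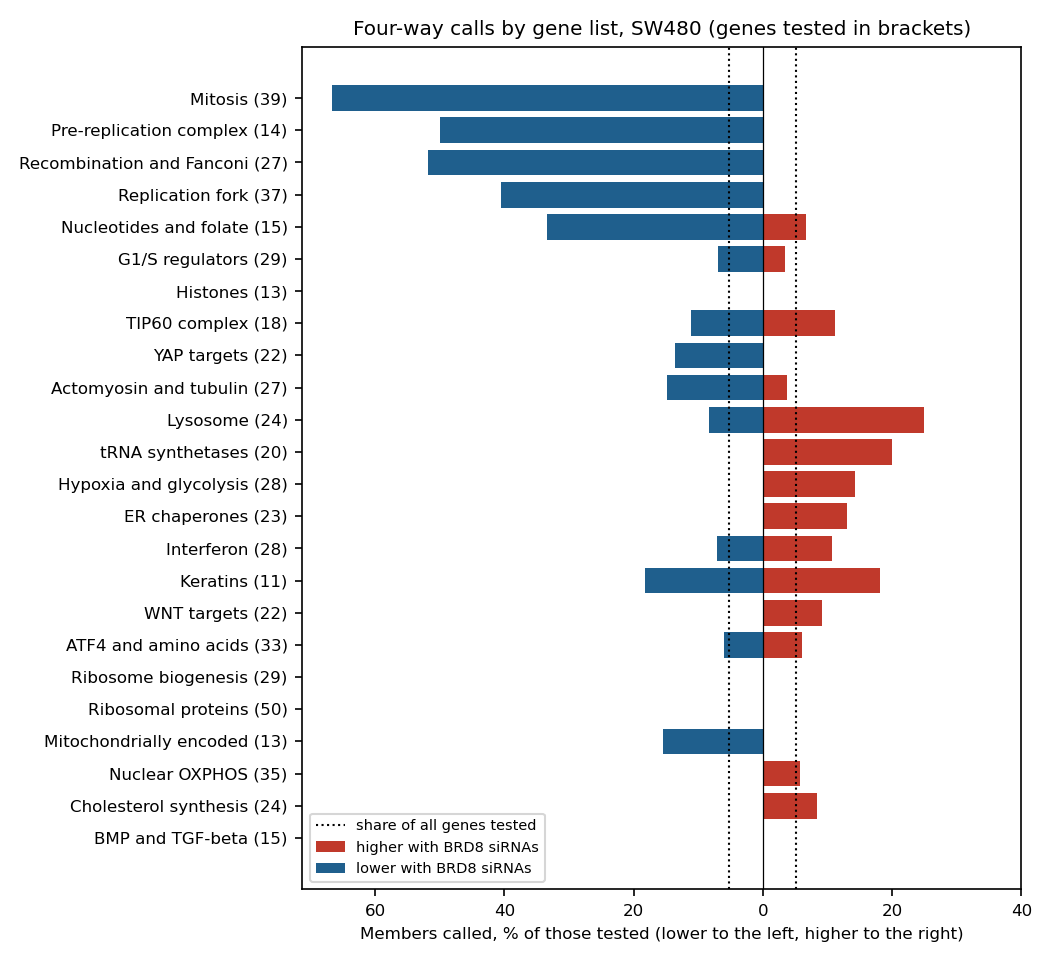
Share of the tested members of 24 gene lists called lower (left, blue) and higher (right, red) with BRD8 siRNAs against TIP60 siRNAs in SW480, in percent, with the number tested in brackets; dotted lines mark the shares among all 15220 genes (5.21 and 5.12%). The mitosis, recombination, pre-replication and replication fork lists reach far to the left and have no member on the right, while ribosome biogenesis, ribosomal protein, histone and BMP lists have none on either side.

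**Figure D3:**
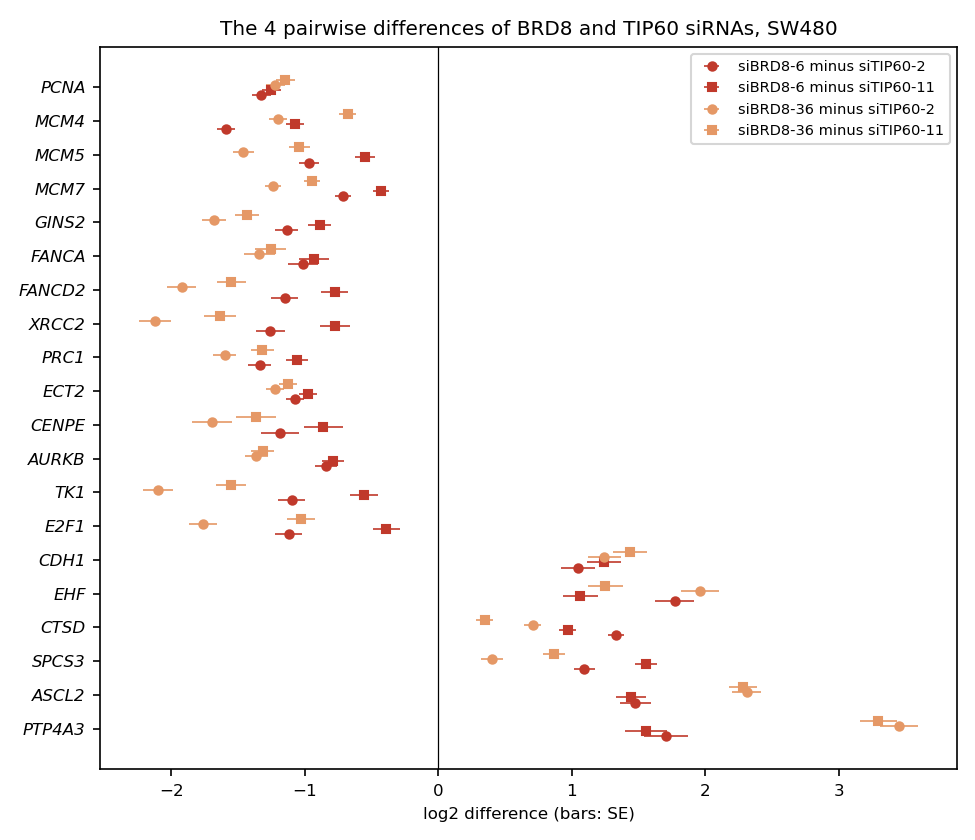
The 4 pairwise log2 differences of 1 BRD8 siRNA against 1 TIP60 siRNA for 20 named genes (x axis, bars are SE; colour gives the BRD8 siRNA, circles siTIP60-2 and squares siTIP60-11). All 4 values of PCNA lie between −1.32 and −1.15, those of XRCC2, TK1 and E2F1 spread widely on the left, and CDH1, EHF, ASCL2 and PTP4A3 lie on the right.

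Among protein-coding genes with a mean count of at least 50, the highest by its smallest pairing after KAT5 was PTP4A3, which encodes the phosphatase PRL-3. It stood at 8.41, 9.23 and 9.94 CPM with siBRD8-6 and at 31.1, 31.1 and 30.7 CPM with siBRD8-36, and at 3.22, 2.25 and 2.97 CPM with siTIP60-2 and 3.72, 2.47 and 3.23 CPM with siTIP60-11 (2.50 ± 0.107, adjusted p = 2.03e-07). The controls, at 4.93 to 5.84 CPM, lay between both targets. ASCL2, the transcription factor of intestinal stem cells and a WNT target, ranged over 32.9 to 67.4 CPM (median 46.7) with BRD8 siRNAs and 10.8 to 14.9 CPM (median 12.5) with TIP60 siRNAs (1.88 ± 0.0781, adjusted p = 2.78e-09), again on both sides of the controls at 21.5 to 23.1 CPM. APOE, the apolipoprotein of cholesterol transport, ranged over 50.8 to 105 CPM (median 70.9) and 12.005 to 23.1 CPM (median 17.2) (2.13 ± 0.0753, adjusted p = 2.4e-09). AZGP1, a secreted lipid-mobilising glycoprotein, ranged over 11.3 to 17.5 CPM (median 12.8) and 2.36 to 4.96 CPM (median 3.12) (2.06 ± 0.122, adjusted p = 5.25e-07), with the TIP60 libraries around the controls at 2.84 to 3.66 CPM. The other genes of this rank were C11orf68, MYOM3, ASIC1, BBOF1, NAT16, SLC25A30, DLG4, APH1B, DEF6 and ACAP1, with mean differences from 1.37 to 1.57. BBOF1, DLG4 and SLC25A30 overlap exons of another expressed gene on the opposite strand, and the strand setting of the counting is not given in the sources used here.

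GZMB, the gene of the cytotoxic protease granzyme B, was the lowest of the same class of genes: 0.721, 0.556 and 1.43 CPM with siBRD8-6 and 0.969, 0.444 and 0.797 CPM with siBRD8-36 against 20.6 to 40.8 CPM (median 26.4) with TIP60 siRNAs (−5.02 ± 0.166, adjusted p = 4.55e-11). Its controls lay at 3.74 to 4.51 CPM, between both targets. Among the other leading lower genes, 5 encode zinc finger proteins (ZNF678, ZNF331, ZNF273, ZNF765 and ZNF519). ZNF678 ranged over 0.961 to 2.62 CPM (median 1.84) and 7.82 to 11.2 CPM (median 10.7) (−2.43 ± 0.15, adjusted p = 1.2e-07), and ZNF765 over 7.81 to 11.2 CPM (median 8.7) and 22.7 to 28.4 CPM (median 25.3) (−1.49 ± 0.0892, adjusted p = 3.01e-08). These genes belong to a large family with related sequences, so their values may be less certain. Reads shared between members were not measured.

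ARNTL (chromosome 11, 13276652 to 13387266 on the plus strand), which encodes the clock factor BMAL1, gave nearly the same value with either siRNA of a target. It stood at 34.4, 30.9 and 32.1 CPM with siBRD8-6, 34.3, 31.7 and 32.99 with siBRD8-36, 97.8, 92.1 and 99.8 with siTIP60-2 and 96.6, 107 and 100.4 with siTIP60-11, and the controls stood between them at 64.6 to 65.7 CPM (−1.59 ± 0.0507, adjusted p = 1.12e-12). RNF6 (chromosome 13, 26132115 to 26222493 on the minus strand), a ubiquitin ligase gene, ranged over 34.5 to 52.02 CPM (median 45.02) in the BRD8 libraries and 134 to 148 CPM (median 141) in the TIP60 libraries, the latter at the control level of 133 to 149 CPM (−1.71 ± 0.0554, adjusted p = 2.98e-12). GULP1, an adaptor of phagocytosis, stood at 64.2 to 76.04 CPM (median 73.9) against 179 to 222 CPM (median 198) with controls at 189.9 to 214 CPM (−1.47 ± 0.047, adjusted p = 1.44e-12). DEPDC1B, a cell cycle gene of the G2 to M transition, ranged over 18.5 to 25.6 CPM (median 21.7) and 60.6 to 68.5 CPM (median 62.5) (−1.56 ± 0.0654, adjusted p = 8.88e-11). C5, the complement component, and RNF227, ATP6AP1L and FAM49A were lower too, with differences of −1.65, −1.55, −1.34 and −1.47.

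**Figure D4:**
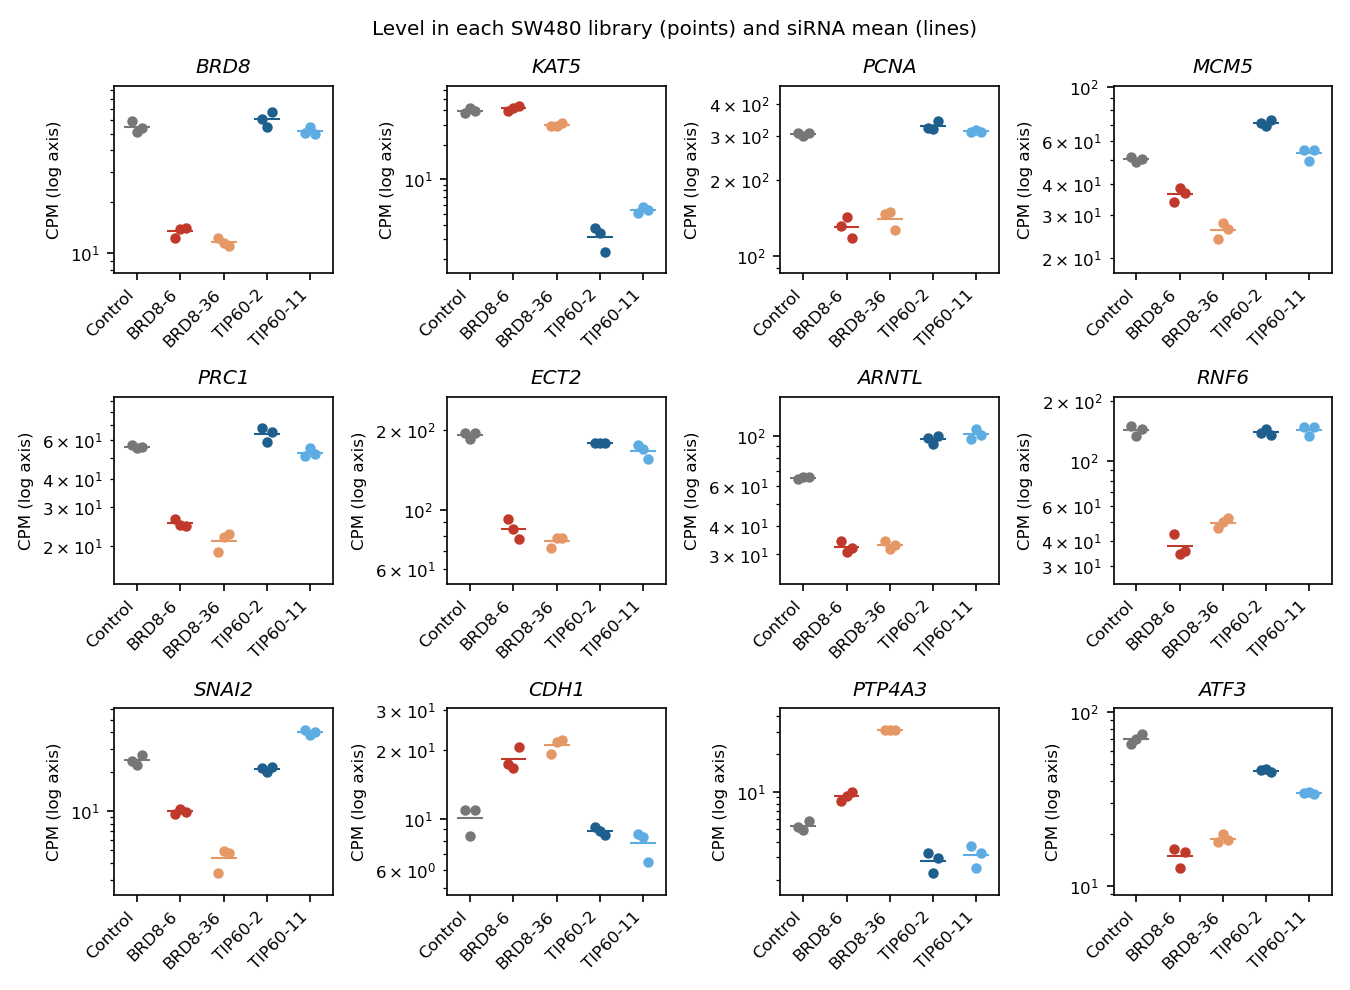
CPM (log axis) of 12 named genes in each SW480 library (points) with the mean of each siRNA (lines), controls in grey. BRD8 and KAT5 are low only in their own depletions, PCNA, PRC1, ECT2 and RNF6 are near control level with TIP60 siRNAs and low with BRD8 siRNAs, and ARNTL and PTP4A3 have their controls between both targets.

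Single genes of epithelial and mesenchymal cells differed, in either direction. CDH1 (chromosome 16, 68737225 to 68835548 on the plus strand), which encodes the adhesion protein E-cadherin, ranged over 16.7 to 22.1 CPM (median 20.01) in the BRD8 libraries and 6.45 to 9.2 CPM (median 8.55) in the TIP60 libraries, with controls at 8.45 to 10.99 CPM (1.24 ± 0.0897, adjusted p = 2.41e-06). SNAI2, which encodes SLUG, a repressor of CDH1, stood at 9.49, 10.4 and 9.86 CPM with siBRD8-6, 3.39, 4.99 and 4.78 with siBRD8-36, 21.3, 20.05 and 21.6 with siTIP60-2 and 41.6, 38.2 and 39.99 with siTIP60-11 (−2.13 ± 0.0832, adjusted p = 2.75e-07). The controls of SNAI2, at 22.7 to 26.8 CPM, lay above every BRD8 and siTIP60-2 library and below every siTIP60-11 library. Part of the difference thus lay in higher levels with siTIP60-11. EHF, an ETS factor of epithelial cells, ranged over 23.8 to 35.3 CPM (median 28.1) and 6.76 to 14.2 CPM (median 9.47) (1.51 ± 0.0969, adjusted p = 4.13e-06). KRT18, a keratin of simple epithelia, ranged over 1790.4 to 2124 CPM (median 1986) and 1168 to 1437 CPM (median 1235) (0.64 ± 0.0416, adjusted p = 3.07e-06). Keratins of stratified epithelia went both ways. KRT5 was higher, at 1216 to 1700 CPM (median 1428) against 489 to 1033 CPM (median 720) (1.02 ± 0.0435, adjusted p = 6.6e-05). KRT15 was lower, at 5.48 to 7.56 CPM (median 6.75) against 12.3 to 18.1 CPM (median 17.04) (−1.28 ± 0.1, adjusted p = 3.95e-06). Its controls, at 5.5 to 6.89 CPM, lay within the range of the BRD8 libraries and below all TIP60 libraries. The lists as a whole did not move one way: 2 of 11 keratins were called higher and 2 lower, 1 of 20 junction genes higher (CDH1) and 1 lower (TJP1, −0.33 ± 0.0515), 1 of 15 intestinal regulators higher (EHF) and 1 lower (KLF4, −0.57 ± 0.0683), and 1 of 15 mesenchymal genes higher (TPM1, 1.10 ± 0.0568) and 1 lower (SNAI2). Of all genes tested, 5.12% were called higher and 5.21% lower, and 1 of 20 or of 15 genes is near those shares. The call of TJP1 ended when any 1 of 7 of the 12 libraries was left out, all of them other than siBRD8-36 libraries. Exons of KRT18 and KRT8 overlap on opposite strands.

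The 22 YAP and TEAD targets had median differences against siTIP60-2 and siTIP60-11 of 0.19 and 0.23 for siBRD8-6 and −0.47 and −0.35 for siBRD8-36, opposite in sign between the BRD8 siRNAs. Of them 3 were called lower, where 5.21% of all genes were, and none higher: LATS2, a kinase that restrains YAP (−0.61 ± 0.0656, adjusted p = 0.000177), and NT5E and AXL, whose calls ended when any 1 of 6 and of 5 libraries was left out, each siTIP60-11 library among them. Of 27 cytoskeletal genes, 4 were called lower (TUBA1C, TUBB, TUBB4B and TAGLN2) and TPM1 was called higher. TUBB4B ranged over 304 to 349.6 CPM (median 327) and 394 to 524 CPM (median 484) (−0.51 ± 0.0478, adjusted p = 0.0013), and tubulin genes share reads with close copies. Of 22 integrin and basement membrane genes, 2 were higher, among them LAMB1, a laminin chain (0.58 ± 0.051, adjusted p = 0.000305), and 1 was lower, LAMA3, another laminin chain (−0.46 ± 0.0547, adjusted p = 0.00238).

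Among immediate early and inflammatory genes, single members differed, in either direction. JUN, a subunit of AP-1, ranged over 37.7 to 45.3 CPM (median 41.8) with BRD8 siRNAs and 78.97 to 96.99 CPM (median 88.2) with TIP60 siRNAs, with controls at 49.1 to 57.04 CPM (−1.06 ± 0.0548, adjusted p = 3.17e-09), and no other of the 24 ERK and AP-1 genes was called lower. JUNB was higher (0.75 ± 0.0701, adjusted p = 0.00894), with its call ending without siBRD8-6 replicate 3 (adjusted p = 0.0732) and without siTIP60-11 replicate 1 (0.0851). BIRC3, an NF-kappaB target that inhibits apoptosis, ranged over 11.5 to 15.3 CPM (median 12.5) and 23.5 to 39.5 CPM (median 29.3), the BRD8 libraries at the top of or above the controls at 8.38 to 11.5 CPM (−1.25 ± 0.0826, adjusted p = 2.28e-06). Among 12 NF-kappaB targets 2 were lower and 1 higher, where 5.21% of all genes tested were called lower and 5.12% higher. Among 28 interferon-stimulated genes 3 were higher and 2 lower, beside the same shares of all genes. BST2, which tethers virions, ranged over 42.2 to 69.9 CPM (median 56.7) and 18.8 to 30.1 CPM (median 25.9) (1.15 ± 0.0646, adjusted p = 5.08e-06). OAS3, a sensor of double-stranded RNA, ranged over 9.73 to 24.3 CPM (median 14.9) and 28.4 to 42.005 CPM (median 35.8) with controls at 12.4 to 12.9 CPM (−1.21 ± 0.0705, adjusted p = 0.00219).

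The called genes of tRNA charging and of folding in the endoplasmic reticulum were all higher with BRD8 siRNAs. Of 20 cytosolic aminoacyl-tRNA synthetases, 4 were called higher and 0 lower (median 0.21), 1 of them with limma on log2(TPM + 1). CARS1, which charges cysteine tRNA, ranged over 199.96 to 216 CPM (median 203) with BRD8 siRNAs, at the control level of 200.5 to 218 CPM, and over 107 to 126 CPM (median 116) with TIP60 siRNAs (0.83 ± 0.0419, adjusted p = 3.17e-09). GARS1, for glycine, differed by 0.41 ± 0.0417, adjusted p = 0.000356, with controls at 973 to 979 CPM above both targets. Of 23 chaperone and quality control genes of the endoplasmic reticulum, 3 were higher and 0 lower (median 0.34), where 5.12% of all genes were called higher. The medians against siTIP60-2 and siTIP60-11 were 0.57 and 0.64 for siBRD8-6 and 0.11 and 0.15 for siBRD8-36, so most of the difference lay with siBRD8-6. PDIA3, a disulfide isomerase and one of the 3, was no longer called under 8 of the 21 alternatives. SPCS3, a signal peptidase subunit, ranged over 82.6 to 142 CPM (median 110.5) and 38.9 to 66.3 CPM (median 58.3), both under the controls at 155 to 168 CPM (0.98 ± 0.0573, adjusted p = 0.0011). Of 33 ATF4 and amino acid genes, 2 were higher and 2 lower. ATF3, a stress-induced transcription factor, was the lowest of these, at 12.7 to 19.9 CPM (median 17.1) against 33.6 to 46.96 CPM (median 39.96) and controls of 65.7 to 74.4 CPM (−1.25 ± 0.0642, adjusted p = 2.42e-07), and PYCR1, a proline synthesis enzyme, was higher (0.62 ± 0.055, adjusted p = 0.00108). No gene of ribosome biogenesis (of 29) and no ribosomal protein gene (of 50) was called by edgeR or DESeq2, and 2 and 1 of them had an unadjusted p under 0.05.

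Of 24 lysosomal genes tested, 6 were higher, among them CTSA, CTSD, GAA, PSAP and TFEB, and 2 lower (NPC1 and NPC2, which export cholesterol), with a median of 0.04, where 5.12% of all genes were called higher and 5.21% lower. In HCT116 1 of the 24 was called higher and 6 lower, where 1192 of 15725 genes were called higher and 1170 lower. CTSD, the protease cathepsin D, ranged over 483 to 829 CPM (median 657) with BRD8 siRNAs and 303 to 429 CPM (median 357) with TIP60 siRNAs (0.84 ± 0.0436, adjusted p = 0.000285). GAA, the glucosidase that degrades glycogen, ranged over 50.7 to 68.5 CPM (median 59.1) and 30.6 to 38.9 CPM (median 34.9) (0.78 ± 0.062, adjusted p = 2.88e-05). CTSA differed by 0.63 ± 0.0421, adjusted p = 3.86e-06, and its exons overlap PLTP on the opposite strand. The call of TFEB, a master regulator of lysosomal genes, ended under 9 of the 20 count-based alternatives. Of 28 hypoxia and glycolysis genes 4 were higher (PDK1, ALDOC, GPI and PFKM) and none lower. PDK1 is the kinase that restrains pyruvate dehydrogenase (0.71 ± 0.0838, adjusted p = 0.00301), and none of the 4 was called with limma on log2(TPM + 1). In lipid synthesis, ACSS2, which makes acetyl-CoA from acetate, was higher at 215 to 237 CPM (median 229) against 116 to 139.9 CPM (median 130.2) (0.82 ± 0.0416, adjusted p = 1.04e-08), and TM7SF2, a sterol reductase, differed by 0.94 ± 0.0639, adjusted p = 2.27e-07. ACSL5, a long-chain acyl-CoA synthetase, was lower (−0.85 ± 0.0592, adjusted p = 2.56e-07), and its exons overlap ZDHHC6 on the opposite strand. The 24 cholesterol genes had 2 higher calls and none lower, and the 18 fatty acid genes 2 higher and 1 lower.

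Of 13 mitochondrially encoded mRNAs, 2 were called lower and none higher (median −0.44), where 5.21% of all genes tested were called lower. MT-ND5, a complex I subunit, ranged over 797 to 1031 CPM (median 855) with BRD8 siRNAs and 1138 to 1600.3 CPM (median 1279.9) with TIP60 siRNAs (−0.57 ± 0.046, adjusted p = 0.00201). The list's medians were −0.02 and −0.67 for siBRD8-6 and −0.22 and −0.84 for siBRD8-36, so the difference lay mainly against siTIP60-11, whose libraries held the highest share of mitochondrial RNA, and the part of that share in the result was not tested. Of 35 nuclear-encoded subunits, 2 were higher and none lower, among them NDUFB10 of complex I (0.50 ± 0.0556, adjusted p = 0.00464). The 2 higher calls are near the 5.12% of all genes tested that were called higher.

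Of 18 subunits of the shared complex tested, 2 were higher (KAT5 and RUVBL2) and 2 lower (BRD8 and EPC1), BRD8 and KAT5 being the siRNA targets, where 10.3% of all genes were called. EPC1, a scaffold of the catalytic module, ranged over 10.99 to 22.01 CPM (median 14.3) in the BRD8 libraries and 27.9 to 32.5 CPM (median 30.9) in the TIP60 libraries, with controls at 16.6 to 20.6 CPM below the latter (−1.0003 ± 0.0839, adjusted p = 0.000255). RUVBL2 differed by 0.40 ± 0.0481, and its call ended without any one of the 3 siBRD8-6 libraries or of 2 siTIP60-11 libraries. Among 20 other acetyltransferase and bromodomain genes none was higher and 3 were lower. HAT1, which acetylates newly made histone H4, ranged over 87.7 to 105 CPM (median 96.5) and 121 to 148 CPM (median 135) (−0.48 ± 0.0469, adjusted p = 0.001). Of 22 WNT targets 2 were higher (ASCL2 and PROX1) and none lower, and none of 15 BMP and TGF-beta genes was called by edgeR or DESeq2 (1 at an unadjusted p under 0.05).

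Markers of other cell types were low or had no counts. The 8 fibroblast markers summed to 14.7 to 17.2 CPM with siBRD8-6, 5.28 to 6.55 with siBRD8-36, 7.55 to 8.74 with siTIP60-2 and 10.4 to 10.9 with siTIP60-11, and COL1A2, COL3A1, DCN and LUM had no count in any of the 15 libraries. COL1A1 was present in every library, at 4.78 to 10.95 CPM, and PDGFRB lay at 0.485 to 6.56 CPM. The 10 leukocyte markers summed to at most 6.48 CPM, with PTPRC and MS4A1 at 0 counts throughout, CD68 at up to 5.08 CPM and LYZ at up to 1.78 CPM. The 5 endothelial markers summed to at most 2.42 CPM, with CDH5 and KDR at 0 and VWF at 0.555 to 2.42 CPM. The 8 colon epithelial markers summed to 5119 to 5675 and 5400.2 to 5739 CPM with the BRD8 siRNAs, 3903 to 4128 and 4322 to 4818 CPM with the TIP60 siRNAs and 4123 to 4217 CPM in the controls.

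The same 4 siRNAs were used in HCT116, another colorectal cancer line, in libraries of 14.7 to 18.6 M counts, deeper than those of SW480. The four-way rule called 2362 of 15725 genes there (15%). In both lines 614 genes were called, 602 in the same direction, which are 38.3% of the SW480 calls and 25.5% of the HCT116 calls, and 12 in opposite directions. A test of the difference between lines, by the same four-way rule on the interaction, called 639 of 17365 genes (3.68%), and 196 of the 1572 SW480 calls were among them. The mitosis list, with 26 lower calls in SW480, had 8 in HCT116 (median −0.62), and 7 of its 39 genes were called for a difference between lines. The fork list had 15 and 16 lower calls and no gene called for a difference between lines. PCNA differed by −0.91 ± 0.031 in HCT116, RNF6 by −1.37 ± 0.0461 and PRC1 by −1.37 ± 0.0344.

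Several of the leading SW480 genes did differ between lines. PTP4A3 differed by 2.50 ± 0.107 in SW480 and 0.09 ± 0.0619 in HCT116, AZGP1 by 2.06 ± 0.122 and 0.07 ± 0.293, and GULP1 by −1.47 ± 0.047 and −0.17 ± 0.0435. ARNTL differed by −1.59 ± 0.0507 in SW480 and −0.38 ± 0.0765 in HCT116. SNAI2 differed by −2.13 ± 0.0832 in SW480 and by 0.92 ± 0.349 in HCT116, where it was not called, and EHF by 1.51 ± 0.0969 and −0.26 ± 0.0321, the latter again not called. Among genes with a mean count of at least 50 in both lines, ranked by the smallest of the 4 interactions, KRT13, NANOS1 and ADIRF led on the SW480 side and TUBA1A, VIM and LGALS1 on the other. AZGP1 and SNAI2 fell under that count in HCT116. VIM, the intermediate filament of mesenchymal cells, differed by −0.31 ± 0.0436 in SW480, where it was not called, and by 1.83 ± 0.132 in HCT116. KRT13 differed by 0.37 ± 0.0645 and −4.13 ± 0.112. Of these 6 genes only ADIRF was called in SW480 (adjusted p = 0.0443), and that call ended under 11 of the 20 count-based alternatives.

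**Figure D5:**
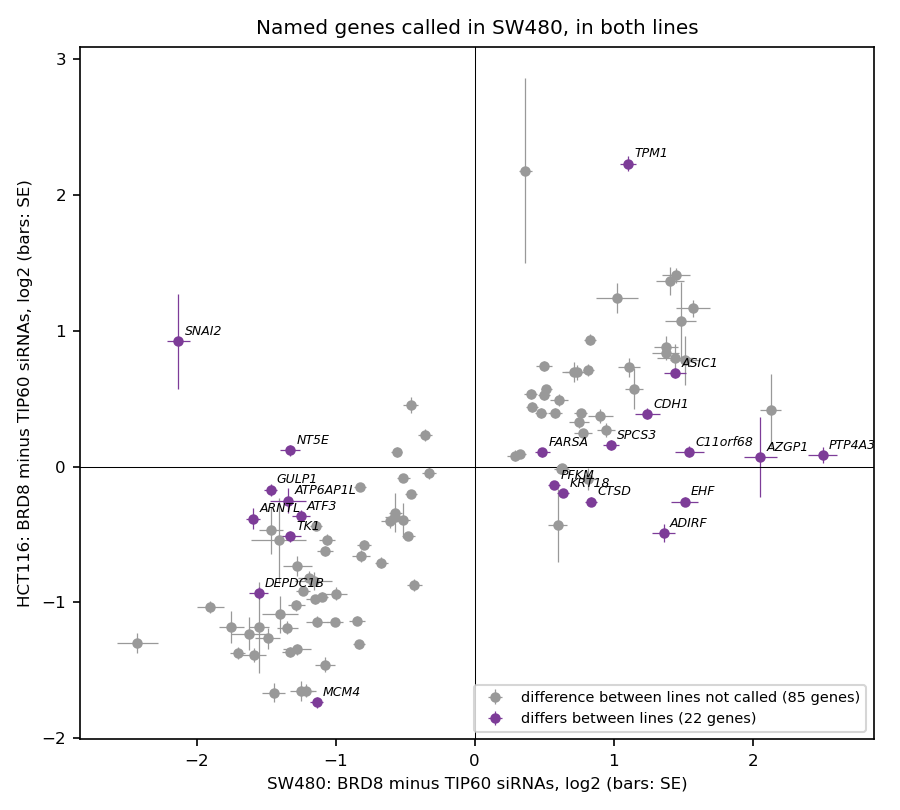
Mean log2 difference of BRD8 minus TIP60 siRNAs in SW480 (x axis) and HCT116 (y axis) for the 107 named genes called in SW480 and tested in HCT116, without both targets; bars are SE, purple marks the 22 genes called for a difference between lines. Many grey genes lie in the lower left or upper right, while SNAI2 lies at the upper left, and EHF, ADIRF, CTSD, KRT18 and PFKM lie above 0 in SW480 and below 0 in HCT116.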

How the data were processed

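RNA was measured in 12 SW480 libraries with BRD8 or TIP60 siRNAs, 3 SW480 controls and 12 HCT116 libraries with the same siRNAs. Libraries were made with a directional kit from 100 ng of RNA and read as 1 × 60 bases, per the labels' protocols. The submitters' processing notes name Trimmomatic 0.33, STAR 2.7.3a, RSEM 1.3.3 and hg38. Annotation release and strand setting: not given in the sources used here. Per the file headers, expected counts were deposited, estimates that divide shared reads and need not be whole (9.13 to 10.8% of SW480 values were not), beside deposited TPM values. Expected counts were rounded. edgeR 4.0.16 (TMM, filterByExpr, robust quasi-likelihood fit) was fitted to the 12 SW480 libraries with 1 term per siRNA and tested on simulated data, and SE is the log2 difference divided by the root of F. Lines were compared in a fit of 24 libraries. Gene types and coordinates are from GENCODE release 29, which held 58444 of 60617 listed genes.

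The members, the 36 gene lists (817 entries, 1 unmatched) and the rules were chosen with earlier results of these data known. Named genes were BRD8 and KAT5, the 15 highest and 15 lowest called protein-coding genes by the smallest of the 4 differences with a mean count of at least 50, up to 4 called members per list, and 3 genes in each direction for the lines. Members listed in parentheses without values complete a list's calls. The 21 alternatives were DESeq2 1.42.0, RLE scaling, no filter, a stricter filter, controls in the fit, a replicate block, limma 3.58.1 on log2(TPM + 1), a fit without robust estimation, no mitochondrial genes, and each of the 12 libraries left out. Replicates of a group held different values, so all were counted.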

Additional observations from a re-analysis of the deposited data

Results flagged for a closer look

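Of the genes named, 27 differed between SW480 and HCT116 in the difference of BRD8 against TIP60 siRNAs, by the interaction of all 4 siRNA pairings in edgeR with Benjamini-Hochberg adjustment. The values are the SW480 minus the HCT116 difference on the log2 scale. It was above 0 for 15 genes: KRT13 (4.51), PTP4A3 (2.44), NANOS1 (2.42), AZGP1 (2.01), ADIRF (1.87), EHF (1.78), C11orf68 (1.45), CTSD (1.11), CDH1 (0.87), KRT18 (0.85), SPCS3 (0.84), ASIC1 (0.77), PFKM (0.72), MCM4 (0.61) and FARSA (0.40). It was below 0 for 12 genes: SNAI2 (−3.03), VIM (−2.13), TUBA1A (−1.94), LGALS1 (−1.45), NT5E (−1.43), GULP1 (−1.28), ARNTL (−1.20), TPM1 (−1.11), ATP6AP1L (−1.08), ATF3 (−0.87), TK1 (−0.79) and DEPDC1B (−0.61). In 11 of them the differences had opposite signs in the lines (PFKM, KRT18, EHF, SNAI2, NT5E, CTSD, KRT13, NANOS1, ADIRF, VIM, LGALS1), and in TPM1 and MCM4, called in both lines, and TUBA1A, called in HCT116 alone, the signs were the same and the HCT116 difference was the larger. Each rests on 3 libraries per siRNA and line.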

How the results depend on the processing

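The number of four-way calls (1572) stayed within 1.5 times of that value under 20 of the 21 alternatives and when genes with overlapping libraries were dropped (1559), and the directions stayed near balance (DESeq2 658 higher and 642 lower, RLE scaling 800 and 770, stricter filter 781 and 834). The exception was limma on log2(TPM + 1), with 583 calls, 365 higher and 218 lower, of which 549 were among the 1572 in the same direction. Leaving out each library in turn gave 1269 to 1627 calls, 618 to 794 higher and 651 to 833 lower, the fewest without siBRD8-6 replicate 3. The calls between siBRD8-6 and siBRD8-36 ranged from 5665 to 8072 over all alternatives and those between siTIP60-2 and siTIP60-11 from 4879 to 7163. Same-numbered replicates showed no shared deviation from their group means (correlations of −0.156 to 0.168). With 3 libraries per siRNA this cannot settle whether they were handled together. With a replicate block 1432 genes were called. The four-way calls that differ between lines numbered 639, and 597 to 662 with DESeq2, a replicate block or the stricter filter. Of 116 named genes called in SW480, 64 kept their call under all 21 alternatives, 88 under all but limma, and none changed sign. Lost with limma on log2(TPM + 1) were ACAP1, C5, ORC6, MCM7, POLE2, GINS4, TK1, E2F5, E2F1, CENPE, FANCA, FANCB, FANCD2, EPC1, ATAD2, BRPF3, PROX1, CBS, SESN2, GARS1, FARSA, LARS1, PDIA3, ACSL5, ISG15, OAS3, IFITM1, NFKB1, PDK1, ALDOC, GPI, PFKM, KRT16, TJP1, KLF4, LATS2, NT5E, AXL, ITGB6, LAMB1, LAMA3, TUBB4B, TAGLN2, TFEB, MT-ND5, MT-ND1, CYC1. The causes were not tested. The median of all genes moved from −0.01 to 0.05 with limma, the largest shift. Depth limits genes of few counts most: ITGB6 and KRT16, with mean counts of 22.8 and 24.1, had the largest SEs among the named genes (0.199 and 0.198).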

Other observations

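Genes of the circadian clock were examined after ARNTL had been seen among the leading genes, so the set supports nothing beyond its values. ARNTL and CLOCK drive the clock, and NR1D1 and NR1D2 encode REV-ERB proteins that repress ARNTL. NR1D2 ranged over 65.3 to 132 CPM (median 99.2) in the BRD8 libraries, around the controls at 98.1 to 106 CPM, and over 34.8 to 45.4 CPM (median 38.9) in the TIP60 libraries (1.26 ± 0.0589, adjusted p = 6.46e-07). NR1D1 ranged over 23.8 to 30.1 CPM (median 27.9) and 8.41 to 20.3 CPM (median 15.4) (1.01 ± 0.0769, adjusted p = 0.00944). NFIL3, a repressor of D-box genes, was lower, at 17.3 to 20.5 CPM (median 18.9) against 29.3 to 36.9 CPM (median 32.8) and controls of 37.4 to 48.4 CPM (−0.81 ± 0.0653, adjusted p = 8.02e-06). CLOCK (0.94 ± 0.0758, adjusted p = 0.422), the PER and CRY genes, DBP and TEF were not called. In HCT116, NR1D1 differed by 1.16 ± 0.0424, NR1D2 by 0.57 ± 0.0387 and ARNTL by −0.38 ± 0.0765, and only NR1D2 of these 3 was called there. Alternatives were not run on the genes of this set other than ARNTL.

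Zinc finger genes named ZNF with a number were counted because 5 of them stood among the leading lower genes. Of 420 tested, 45 (10.7%) were called lower and 6 (1.43%) higher, with a median difference of −0.10, against 5.21 and 5.12% of all genes. The 193 on chromosome 19 had 26 lower and 4 higher calls. Of the same genes, 29 were called lower and 24 higher in HCT116, where 1170 of 15725 genes were called lower and 1192 higher. How many of the 420 were tested in HCT116 was not counted. The genes have related sequences, and 98 had a mean count under 50.

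Among genes that encode no protein, chosen after their values were seen, LINC00513 ranged over 0.444 to 1.33 CPM (median 0.591) with BRD8 siRNAs and 5.41 to 7.48 CPM (median 6.998) with TIP60 siRNAs (−3.08 ± 0.217, adjusted p = 2.42e-07). MIR503HG, the host transcript of a microRNA cluster, ranged over 34.7 to 46.6 CPM (median 37.98) and 96.6 to 132 CPM (median 104) with controls at 63.8 to 67.7 CPM (−1.47 ± 0.0612, adjusted p = 5.8e-10), and differed by −1.88 ± 0.299 in HCT116. LUCAT1 was lower in SW480 (−1.58 ± 0.0834) and stood at 0.89 ± 0.174 in HCT116, where it was not called. LINC00957 was higher (1.72 ± 0.169, adjusted p = 0.00201). The promoters of called lower and higher protein-coding genes had a median GC content of 63.6 and 66.0%, against 65.2% of all those tested. Whether GC content bears on the calls was not tested.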
